A study of Mus musculus with 18 samples.

Results

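Of the 24421 gene symbols counted in both experiments of the study, 8 are described here as regulators of phosphate handling and mineralization: Alpl, Phospho1, Enpp1, Ank, Slc20a1, Slc20a2, Spp1 and Mgp. They were found by symbol in both tables, and all 8 passed the filter on low counts in every comparison. RNA was sequenced in 18 libraries, 3 in each of 6 groups, all from bone marrow (BM) cells that the labels call MSPCs, from mice of strain C57BL/6. In culture, CD51+/PDGFRα+ cells came from mice aged 4 to 6 months that carried a flox-stop-flox tdTomato reporter with either wild-type (wt/wt) or Pot1a flox/flox alleles. Cells of both genotypes were exposed for 12 hours to vesicles carrying Cre (10 µL in each well). After 48 hours a new sort kept those with tdTomato, which were sequenced at week 1 or week 4. The flox/flox cultures are labelled Δ/Δ. The other 6 libraries were of tdTomato+ cells sorted directly from the BM of mice aged 2 weeks, in which Cre was driven by NG2-cre, with titles that give them as wt/Δ or Δ/Δ. The genotype field of those 6 samples reads POT1afl/fl for all of them, so that their groups rest on the titles. NG2-cre acts in pericytes and in the cells that descend from them, and the controls of the sorted cells carry a deleted allele, whereas the controls in culture carry none. Replicates are numbered, and the labels do not say which libraries share a mouse, so that p-values measure the spread between these libraries.

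Mineral forms in bone when phosphate and calcium reach a concentration at which crystals grow, and pyrophosphate, a close relative of phosphate, blocks that growth. Enpp1 makes pyrophosphate from ATP outside the cell, and Ank (Ankh in human) lets ATP and pyrophosphate leave it. Alpl, the tissue-nonspecific alkaline phosphatase, splits pyrophosphate into phosphate, and Phospho1 releases phosphate from phospholipid head groups inside the matrix vesicles where crystals start. Slc20a1 and Slc20a2 are cotransporters that bring phosphate into the cell with sodium. Spp1 (osteopontin) and Mgp (matrix Gla protein) are secreted proteins that bind mineral and restrain its growth, the former acidic and phosphorylated and the latter dependent on vitamin K.

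The 12 cultured libraries held 12807832 to 90717232 counts and the 6 sorted libraries 28918757 to 49992698. Pot1a, the targeted gene, was not lower in the cultured libraries labelled Δ/Δ. It had 34.9 ± 1.51 CPM (counts scaled to the TMM-adjusted size of the library, SD, n = 3) in wt/wt and 34.5 ± 3.41 CPM in labelled Δ/Δ at week 1, and 34.9 ± 2.54 CPM against 45.6 ± 2.62 CPM at week 4. In the sorted cells it had 30.4 ± 3.70 CPM in wt/Δ and 26.9 ± 6.77 CPM in labelled Δ/Δ, and the ranges overlapped. At week 4 it was called higher (log2 fold change 0.39, adjusted p = 0.0298). The counts are of the whole gene, reads from exons that Cre leaves in place included, and each direction given below follows the labels. By qPCR, the study reports a significant reduction of Pot1a mRNA in its cultures and reduced expression in the tdTomato+ cells. It also shows a band of the deleted allele in culture. Whole-gene counts do not measure the deletion itself. All 10 markers of mesenchymal stromal cells were detected in 5 of the 6 groups, and 9 in labelled Δ/Δ at week 4, where Thy1 was at 0. The 10 markers of macrophages and osteoclasts summed to 87.2 to 180.3 CPM in the cultured libraries and to 2391 to 7126 CPM in the sorted ones. Other blood and vessel markers were also present in all sorted libraries. Neutrophil markers summed to 1013 to 1863 CPM, endothelial to 952 to 1636, erythroid to 187 to 365 (4 of 6 detected) and B cell to 60.5 to 123. In culture these sums were at most 0.598, 10.6, 4.93 and 0.0709 CPM. Markers of megakaryocytes summed to 1603 CPM in wt/Δ replicate 2 and to 816 CPM in labelled Δ/Δ replicate 3 of the sorted cells, against 17.6 to 27.1 CPM in the other 4. Those libraries stood apart in megakaryocyte markers, and results from the sorted cells are given with and without them.

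Spp1 was the most abundant of the 8 genes in every group. Per kilobase of exon, its mean level ran from 4703 CPM per kilobase in labelled Δ/Δ at week 1 to 9189 CPM per kilobase in wt/wt at week 4. Alpl came next in every group, followed by Mgp, with no overlap between the libraries of these neighbours within a group. The level of Spp1 per kilobase was 48.4 ± 6.05 times that of Alpl in wt/wt at week 1 and 11.5 ± 3.33 times at week 4 (SD, n = 3). Phospho1 was the lowest in every group, at 0.173 to 1.19 CPM per kilobase of all its exonic bases. Of those 2029 bases, 1818 are shared with Zfp652 and 1708 overlap Abi3. If reads there were not counted for Phospho1, its level per kilobase is understated, so its rank is uncertain. The cotransporters kept the order Slc20a2 above Slc20a1 in all 6 groups, and per kilobase Slc20a2 was 1.71 ± 0.0893 times Slc20a1 in wt/wt at week 1 and 9.77 ± 1.24 times in sorted wt/Δ cells. Ank came next after Mgp in 3 of the 4 cultured groups and ranked below Slc20a2 in labelled Δ/Δ at week 4. In wt/wt at week 4 the libraries of Ank and Slc20a2 overlapped, so that their order there is not set.

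**Figure D1:**
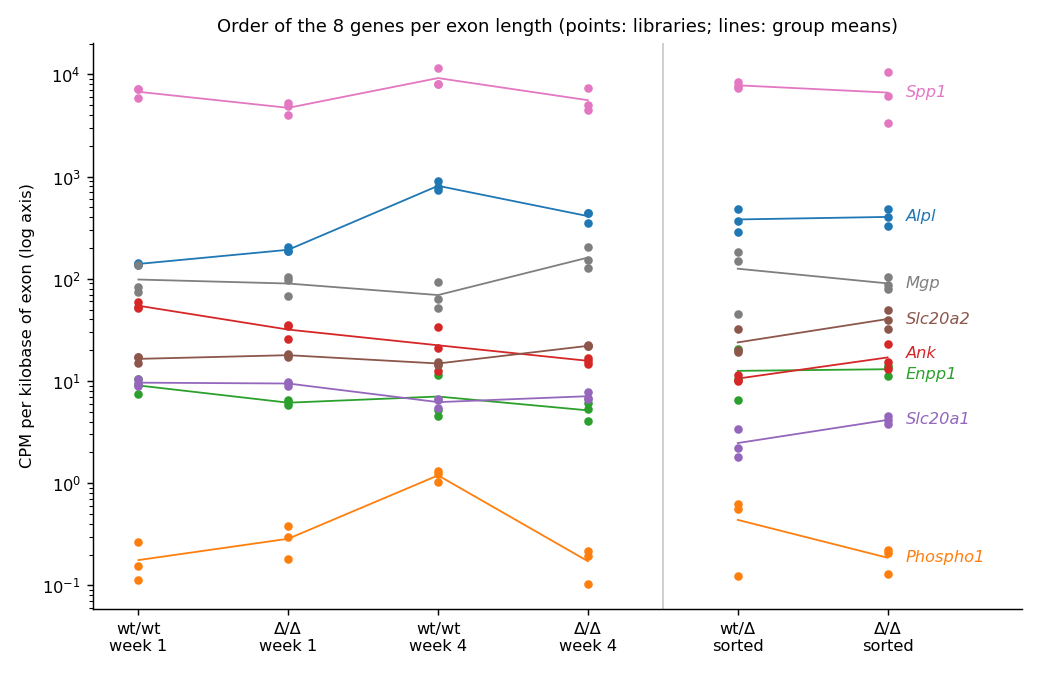
CPM per kilobase of exon on a log axis for the 8 genes in 6 groups, with a point for each library and lines through group means within an experiment. Spp1, Alpl and Mgp lie above the other genes in every group, and Phospho1 lies lowest, with its highest mean of 1.19 in wt/wt at week 4. The rank of Phospho1 is uncertain, since most of its exonic bases are shared with other genes.

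**Figure D2:**
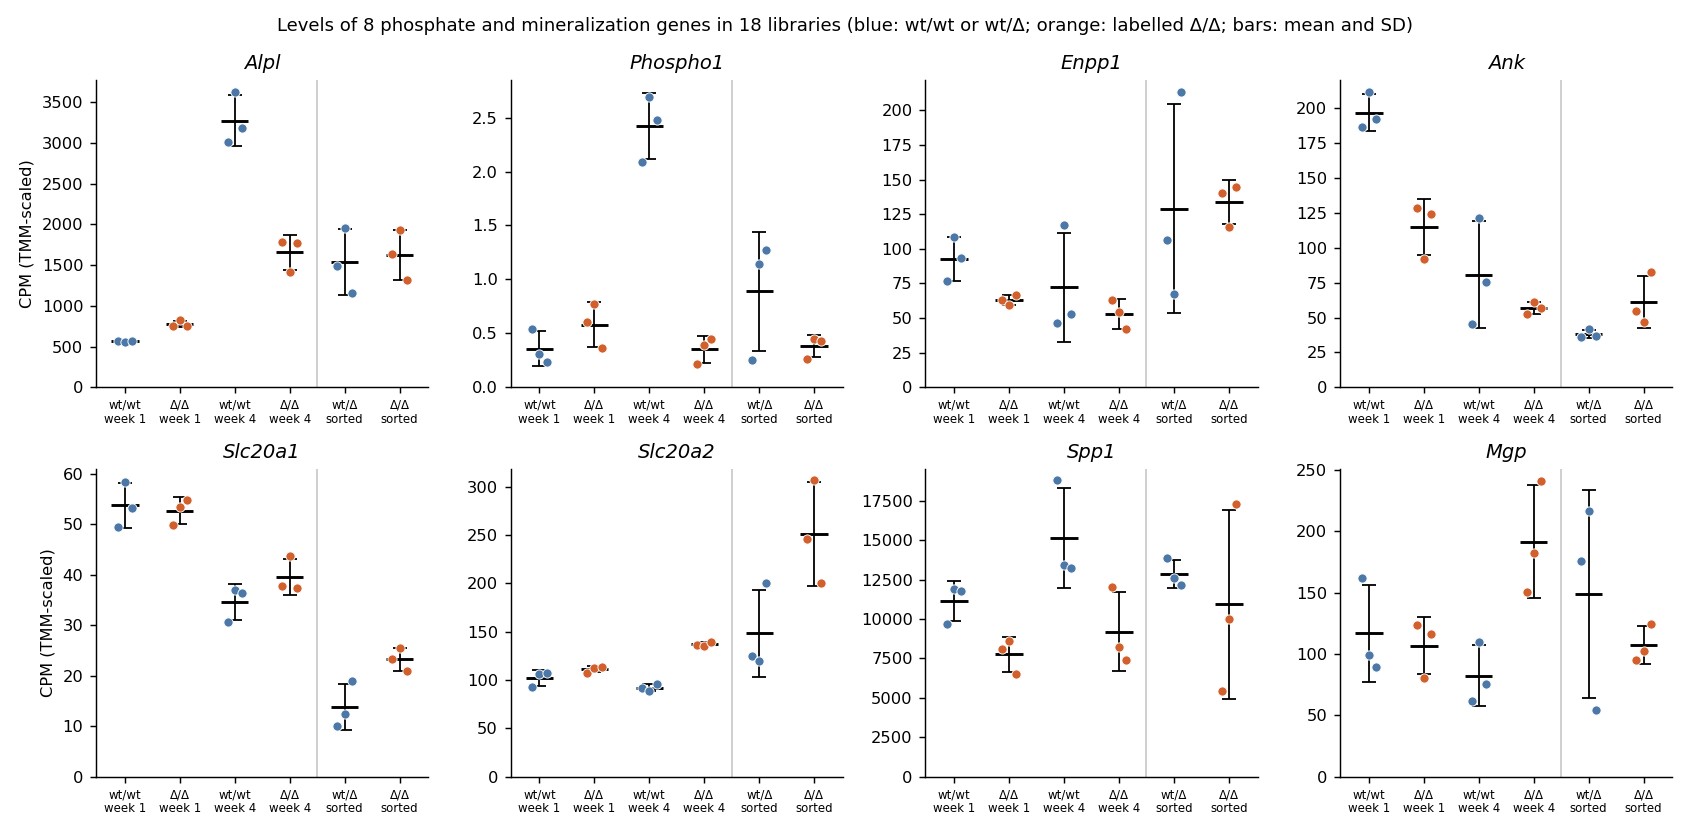
CPM of each gene in the 18 libraries, with the mean and SD of each group of 3 and linear axes that start at 0. Alpl and Phospho1 peak in wt/wt at week 4, Ank and Slc20a1 are highest at week 1, and Slc20a2 and Mgp are highest among the cultured groups in labelled Δ/Δ at week 4.

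The study compared labelled Δ/Δ with wt/wt cells at week 4 to ask how loss of POT1a bears on MSCs. Of the 8 genes, 3 were lower in labelled Δ/Δ (Alpl, Phospho1 and Spp1), 2 were higher (Slc20a2 and Mgp), and 3 did not pass the test (Enpp1, Ank and Slc20a1). Over all 13169 genes tested, 6.46% were called lower and 9.2% higher. The libraries of the groups did not overlap for 6 of the 8 genes, against 27.4% of all genes. The median log2 fold change of the 8 was -0.48, beside 0.0024 over all genes tested, and the median of its size was 0.65 beside 0.22. RNA of the whole culture was measured, so fewer cells of a type and less RNA per cell cannot be told apart.

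The phosphatases that release phosphate were lower together. Alpl (chr4:137741733-137796384, minus strand, GRCm38) had 3012, 3622 and 3184 CPM in wt/wt replicates 1 to 3 and 1781, 1412 and 1770 CPM in labelled Δ/Δ. Every wt/wt library was above every labelled Δ/Δ library. The fold was 0.506 (95% interval 0.422 to 0.606), or -0.98 on the log2 scale (standard error 0.12, adjusted p = 1.15e-04). Phospho1 (chr11:95824499-95832140, plus strand) had 2.09, 2.69 and 2.48 CPM in wt/wt, from 28, 60 and 70 counts, and 0.211, 0.395 and 0.444 CPM in labelled Δ/Δ, from 6, 8 and 41 counts. The groups were well apart, at levels of few counts. The fold was 0.153 (interval 0.0914 to 0.255), or -2.71 on the log2 scale (standard error 0.34, adjusted p = 1.39e-04). Of its 2029 exonic bases, 1818 are shared with Zfp652 on the same strand and 1708 with Abi3 on the other, and the library kit keeps no record of strand, so how its reads were assigned is uncertain. Abi3 had a log2 fold change of 1.89 (adjusted p = 0.00204) and Zfp652 of -0.32 (adjusted p = 0.444), and the part of shared reads in the value of Phospho1 was not tested.

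The secreted inhibitors went in opposite directions. Spp1 (chr5:104435118-104441050, plus strand) had 18818, 13396 and 13216 CPM in wt/wt and 12032, 8212 and 7367 CPM in labelled Δ/Δ. The groups did not overlap, the highest labelled Δ/Δ library being close below the lowest of wt/wt. The fold was 0.608 (interval 0.444 to 0.832, log2 fold change -0.72, standard error 0.21, adjusted p = 0.0347). The call was lost without wt/wt replicate 1 (-0.53, adjusted p = 0.0882), without labelled Δ/Δ replicate 2 (-0.66, adjusted p = 0.107) or replicate 3 (-0.59, adjusted p = 0.127), and with only the 6 libraries compared (-0.74, adjusted p = 0.119). Of the 1648 exonic bases of Spp1, 309 are shared with Gm42793 on the same strand, and the part of shared reads was not tested. Mgp (chr6:136872435-136875823, minus strand) had 61.6, 109.8 and 75.4 CPM in wt/wt and 151, 182 and 241 CPM in labelled Δ/Δ, with no overlap. Its fold was 2.32 (interval 1.54 to 3.52, log2 fold change 1.22, standard error 0.27, adjusted p = 0.00870).

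Of the phosphate cotransporters, Slc20a2 passed the test and Slc20a1 did not. Slc20a2 (chr8:22476788-22569612, plus strand) had 91.7, 88.7 and 96.3 CPM in wt/wt and 136.5, 135.7 and 139.4 CPM in labelled Δ/Δ. The libraries within each group were close to each other and the groups far apart for that spread. The fold was 1.49 (interval 1.3 to 1.7, log2 fold change 0.57, standard error 0.09, adjusted p = 7.05e-04). Slc20a1 (chr2:129198764-129211616, plus strand) had 30.6, 37.0 and 36.4 CPM in wt/wt and 37.7, 43.7 and 37.4 CPM in labelled Δ/Δ, with a fold of 1.14 (interval 0.957 to 1.36, adjusted p = 0.338). Its libraries did not overlap, but the gap between the groups was small beside the spread within them. Of the 6216 exonic bases of Slc20a2, 95 overlap Smim19 on the other strand, which had a log2 fold change of 0.52 (adjusted p = 0.00936). Of the 5580 of Slc20a1, 452 overlap 9830144P21Rik and 280 overlap Gm4430, both on the other strand. The part of such reads in these values was not tested.

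The genes that supply pyrophosphate did not pass the test. Enpp1 (chr10:24637914-24712159, minus strand) had 46.5, 117.5 and 52.9 CPM in wt/wt and 62.9, 54.1 and 41.9 CPM in labelled Δ/Δ. Replicate 2 of wt/wt was high, and the others overlapped. The fold was 0.731 (interval 0.472 to 1.13, adjusted p = 0.361), and without that library the log2 fold change turned from -0.45 to 0.08 (adjusted p = 0.849). Ank (chr15:27466677-27594909, plus strand) had 45.1, 121.1 and 75.8 CPM in wt/wt and 52.7, 61.1 and 56.8 CPM in labelled Δ/Δ. Its wt/wt libraries spread widely on both sides of the labelled Δ/Δ ones, and the fold was 0.703 (interval 0.474 to 1.04, adjusted p = 0.244). Without wt/wt replicate 1, Ank was called lower (log2 fold change -0.79, adjusted p = 0.00998).

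**Figure D3:**
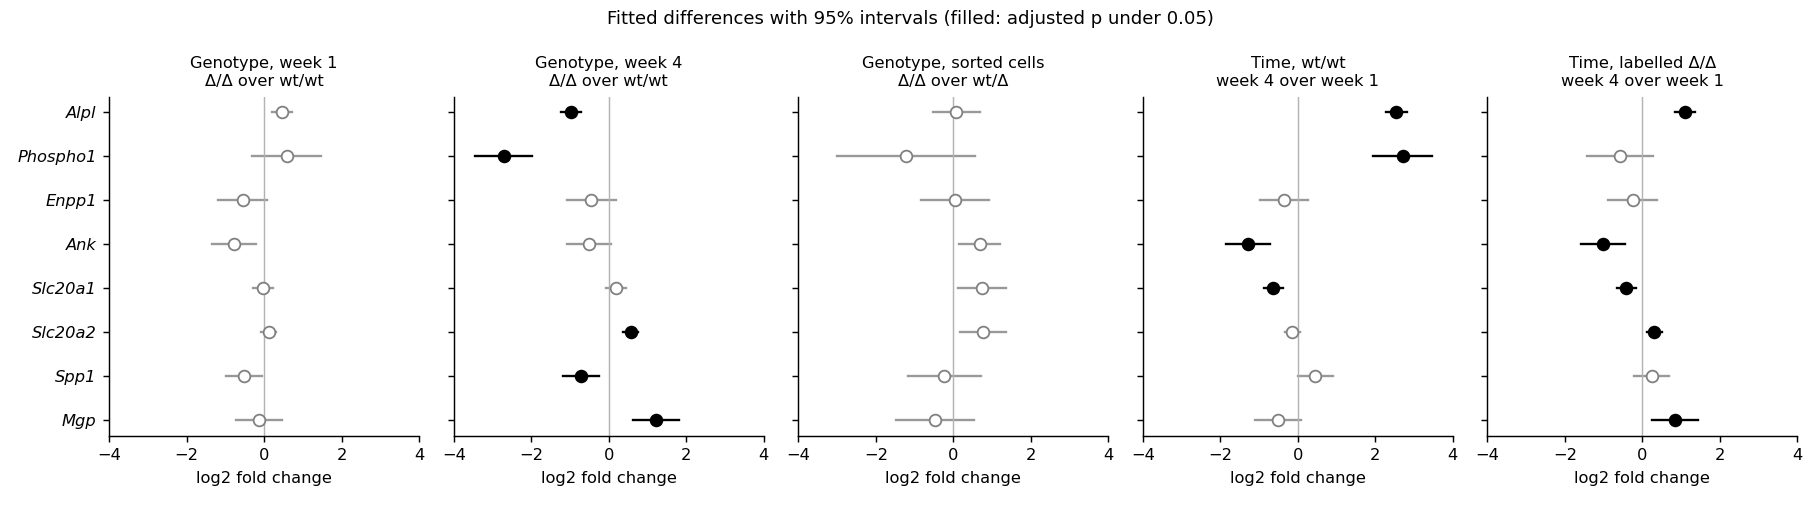
Log2 fold changes of the 8 genes with 95% intervals in 5 comparisons, filled where the adjusted p was under 0.05. The week 4 panel holds 5 filled points, from Phospho1 at -2.71 to Mgp at 1.22, and the panels of week 1 and of sorted cells hold none.

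The sequences around the starts of the 3 genes called lower in labelled Δ/Δ in the later cultures are given. Spp1 did not follow Alpl and Phospho1 throughout. In the earlier cultures its log2 fold change was -0.52, beside 0.46 for Alpl and 0.58 for Phospho1, none of them called. They are windows of RefSeq (GRCm38.p6) from 250 bases before to 50 bases after a start, read 5′ to 3′ on the strand of the gene. Capitals mark matches on either strand to the GC box GGGCGG, the TATA box TATAAA and the RUNX core TGTGGT, which occur in 35.7%, 13.6% and 16.8% of all 32851 such windows. For Alpl and Spp1, which have 2 windows each, that of the more upstream start is shown. The window of Alpl is chr4:137796335-137796634 (minus strand), that of Phospho1 chr11:95824250-95824549 and that of Spp1 chr5:104434861-104435160 (both plus strand).
Alpl: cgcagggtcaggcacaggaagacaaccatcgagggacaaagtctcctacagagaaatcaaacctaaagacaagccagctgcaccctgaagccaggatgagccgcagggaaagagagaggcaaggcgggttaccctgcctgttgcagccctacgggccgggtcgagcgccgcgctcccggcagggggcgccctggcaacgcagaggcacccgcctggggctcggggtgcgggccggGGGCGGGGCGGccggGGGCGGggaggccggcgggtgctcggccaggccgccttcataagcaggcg
Phospho1: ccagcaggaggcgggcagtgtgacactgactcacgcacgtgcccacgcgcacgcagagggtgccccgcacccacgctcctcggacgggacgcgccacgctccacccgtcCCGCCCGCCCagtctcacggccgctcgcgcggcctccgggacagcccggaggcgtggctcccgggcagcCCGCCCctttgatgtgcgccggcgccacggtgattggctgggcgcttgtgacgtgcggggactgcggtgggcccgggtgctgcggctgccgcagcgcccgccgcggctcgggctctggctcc
Spp1: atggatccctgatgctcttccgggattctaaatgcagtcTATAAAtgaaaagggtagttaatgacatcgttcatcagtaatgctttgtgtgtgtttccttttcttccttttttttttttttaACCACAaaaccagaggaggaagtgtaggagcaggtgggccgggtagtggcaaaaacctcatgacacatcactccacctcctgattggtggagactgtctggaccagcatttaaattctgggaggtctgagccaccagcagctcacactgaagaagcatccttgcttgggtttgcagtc
The windows of Alpl and Phospho1 each held 3 GC boxes, some of which overlap, and 70.0% and 77.0% of their bases were G or C. The window of Spp1 held 1 TATA box, which begins 211 bases before the start, and 1 RUNX core, on the opposite strand, 128 bases before it, with 45.3% G or C. The Alpl window not shown differed, with no GC box, 1 TATA box on the opposite strand and 54.3% G or C. That of Spp1 had no match and 36.7% G or C. Which start these cells use was not tested. The same motifs were in windows of genes that did not pass the test. GC boxes lay in those of Enpp1, Ank and Slc20a1, and a RUNX core in those of Enpp1 and Slc20a1. Slc20a1 also had a TATA box, and the window of Ank was slightly richer in G or C than that of Phospho1. A match says only that the letters are there. Windows were matched for 6 of the 8 genes, and Mgp and Slc20a2 had none in the table.

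Other groups of genes differed between the same libraries at week 4. The 6 markers of mature osteoblasts were detected in both groups, none at 0, and all 6 were lower. Among them, Ifitm5 passed the filter on low counts through wt/wt at week 4. The 6 markers summed to 10170 to 14340 CPM in wt/wt and 2848 to 4253 CPM in labelled Δ/Δ. The mesenchymal markers summed to 7270 to 9700 CPM in wt/wt and 14700 to 19100 CPM in labelled Δ/Δ, with 6 of 9 tested genes higher and none lower. Adipocyte markers summed to 25.2 to 38.5 CPM in wt/wt (4 of 5 detected, with Lep at 0) and 86.0 to 117 CPM in labelled Δ/Δ (5 of 5), with 3 of 4 tested genes higher and none lower. Markers of macrophages and osteoclasts, cells that also make Spp1, summed to 103 to 119 CPM in wt/wt (10 of 10 detected). In labelled Δ/Δ they summed to 159 to 180.3 CPM (9 of 10, with Calcr at 0), with 2 of 5 tested genes higher and none lower. The other 5 did not pass the filter on low counts, and a gene was called detected at any count above 0. The part of these differences in the levels of Alpl, Phospho1, Spp1, Slc20a2 and Mgp was not tested.

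At week 1, none of the 8 genes passed the test, where 0.752% of the 13169 genes were called higher and 0.266% lower, and 1570 had an unadjusted p under 0.05. The libraries of the groups did not overlap for 5 of the 8 (Alpl, Enpp1, Ank, Slc20a2 and Spp1), against 22.6% of all genes. DESeq2 called 436 of the 13974 genes it tested, 1 of the 8 among them, which was Alpl (adjusted p = 0.00892). Alpl had 571, 555 and 564 CPM in wt/wt and 755, 822 and 748 CPM in labelled Δ/Δ, a fold of 1.38 (interval 1.15 to 1.65, adjusted p = 0.0939). All 3 labelled Δ/Δ libraries were above those of wt/wt, the opposite order to week 4. With only the 6 libraries of week 1 in the fit it was called (adjusted p = 0.0329). Ank had 186, 212 and 192 CPM in wt/wt and 129, 91.9 and 124 CPM in labelled Δ/Δ, a fold of 0.584 (interval 0.394 to 0.866, adjusted p = 0.214). The groups did not overlap, and Ank was called with only the 6 libraries compared (adjusted p = 0.0207) and without wt/wt replicate 1 of week 4 (adjusted p = 0.0358). Spp1 had 9673, 11911 and 11787 CPM in wt/wt and 8108, 8620 and 6522 CPM in labelled Δ/Δ, a fold of 0.697 (interval 0.509 to 0.954, adjusted p = 0.327). Enpp1 had 76.8 to 108.4 CPM in wt/wt and 59.2 to 66.4 CPM in labelled Δ/Δ, a fold of 0.679 (interval 0.439 to 1.05, adjusted p = 0.5). For Phospho1, Slc20a1, Slc20a2 and Mgp the folds were 1.5, 0.982, 1.09 and 0.914, with adjusted p of 0.687, 0.976, 0.705 and 0.943.

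Whether the genotype difference itself changed between the weeks was tested as an interaction. Of the 8 genes, Alpl and Phospho1 were called with a lower difference at week 4 and Slc20a2 with a higher one, where 3.08% and 4.08% of all genes were called. For Alpl the log2 difference went from 0.46 at week 1 to -0.98 at week 4, a change of -1.44 (standard error 0.17, interval -1.81 to -1.08, adjusted p = 2.36e-04). Leaving out any of the 12 libraries gave a change between -1.51 and -1.36. For Phospho1 it went from 0.58 to -2.71, a change of -3.29 (standard error 0.54, interval -4.46 to -2.13, adjusted p = 0.00231). The call of Slc20a2 was narrow, with a change of 0.45 (standard error 0.13, adjusted p = 0.0485), and it was lost when any of 11 of the 12 libraries was left out, with adjusted p up to 0.132. A replicate block in the fit removed the call too (0.45, adjusted p = 0.0755). For Mgp the change was 1.35 (standard error 0.39, adjusted p = 0.0565), past the threshold under DESeq2 (adjusted p = 0.0122), when low counts were not filtered (adjusted p = 0.0303), and without wt/wt replicate 3 of week 1 (adjusted p = 0.0492), wt/wt replicate 2 of week 4 (adjusted p = 0.0296) or labelled Δ/Δ replicate 1 of week 4 (adjusted p = 0.0471). The changes of Enpp1, Ank, Slc20a1 and Spp1 were 0.11, 0.27, 0.22 and -0.20, with adjusted p of 0.945, 0.814, 0.588 and 0.833. For Spp1 the interval of -0.84 to 0.44 leaves room for a change in either direction.

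Between week 1 and week 4, the same libraries were compared along time within each genotype, so that these values share libraries with the genotype comparisons. In wt/wt, Alpl and Phospho1 rose and Ank and Slc20a1 fell, where 17.9% of all genes were called higher and 16.1% lower. Alpl rose from 555 to 571 CPM at week 1 to 3012 to 3622 CPM at week 4, a fold of 5.81 (interval 4.80 to 7.03, adjusted p = 8.20e-08), and Phospho1 by a fold of 6.55 (interval 3.85 to 11.1, adjusted p = 8.49e-05). Ank fell from 186 to 212 CPM to 45.1 to 121 CPM, a fold of 0.411 (interval 0.276 to 0.612, adjusted p = 0.00251), and Slc20a1 from 49.5 to 58.5 CPM to 30.6 to 37.0 CPM, a fold of 0.646 (interval 0.542 to 0.770, adjusted p = 0.00120). No wt/wt library of week 4 lay within the range of week 1 for any of these 4 genes. Spp1 had a fold of 1.36 (adjusted p = 0.120), Enpp1 of 0.781 (adjusted p = 0.375), Slc20a2 of 0.901 (adjusted p = 0.220) and Mgp of 0.706 (adjusted p = 0.179). Without wt/wt replicate 2 of week 4, the library high in Enpp1, that gene was called lower at week 4 (log2 fold change -0.89, adjusted p = 0.00392).

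Along time under the Δ/Δ label, Alpl, Slc20a2 and Mgp rose and Ank and Slc20a1 fell, where 18.8% of all genes were called higher and 16.3% lower. Alpl rose from 748 to 822 CPM to 1412 to 1781 CPM, a fold of 2.14 (interval 1.78 to 2.56, adjusted p = 2.47e-05). The interval lies below that of wt/wt, and the difference between those changes is the interaction given above. Phospho1 had 0.365 to 0.774 CPM at week 1 and 0.211 to 0.444 CPM at week 4, a fold of 0.668 (interval 0.368 to 1.21, adjusted p = 0.278). Ank fell by a fold of 0.495 (interval 0.333 to 0.736, adjusted p = 0.00999) and Slc20a1 by 0.751 (interval 0.631 to 0.894, adjusted p = 0.0151). Slc20a2 rose by a fold of 1.23 (interval 1.08 to 1.41, adjusted p = 0.0187), from 108 to 114 CPM to 136 to 139 CPM. Mgp rose by 1.79 (interval 1.19 to 2.71, adjusted p = 0.0299), from 80.3 to 123.2 CPM to 151 to 241 CPM. The calls of Slc20a1, Slc20a2 and Mgp were each lost without some of the labelled Δ/Δ libraries, with adjusted p up to 0.0660, 0.0598 and 0.128. Slc20a1 lost its call without replicate 3 of week 1 and replicates 1 or 3 of week 4, Slc20a2 without replicate 1 of week 1 or replicate 3 of week 4, and Mgp without replicates 2 or 3 of either week. Without replicate 3 of week 4, Slc20a1 had -0.37, Slc20a2 0.29 and Mgp 0.64 on the log2 scale.

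Over the 4 cultured groups, the order of the levels differed between the genes. Alpl had wt/wt at week 4 highest, then labelled Δ/Δ at week 4, labelled Δ/Δ at week 1 and wt/wt at week 1, and no neighbours in that order overlapped. Phospho1 stood out in wt/wt at week 4, and the other 3 groups overlapped. Slc20a2 was highest in labelled Δ/Δ at week 4, then in labelled Δ/Δ at week 1, and the wt/wt groups of both weeks overlapped below them. Slc20a1 was highest at week 1, where the genotypes overlapped, and lowest in wt/wt at week 4. Spp1 was highest in wt/wt at week 4, and its other 3 groups overlapped as neighbours. Ank was highest in wt/wt at week 1, and its other neighbours overlapped. For Enpp1 and Mgp, every pair of neighbours overlapped. The highest group mean was 6.92 times the lowest for Phospho1, 5.81 times for Alpl and 1.49 times for Slc20a2.

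In the sorted cells, labelled Δ/Δ was compared with wt/Δ to ask the same question in the marrow. None of the 8 genes passed the test. Nor did any of the 14605 genes tested with edgeR (0%), where 1792 had an unadjusted p under 0.05, while DESeq2 called 408 genes, none of them among the 8. The cotransporters and Ank had the smallest p of the 8. Slc20a2 had 124, 120 and 200.3 CPM in wt/Δ and 246, 307 and 200.3 CPM in labelled Δ/Δ, a fold of 1.69 (interval 1.12 to 2.57, unadjusted p = 0.0192, adjusted p = 0.317). Replicate 3 of each group met at the same level. Slc20a1 had 10.0, 12.4 and 18.9 CPM in wt/Δ and 23.2, 25.4 and 21.0 CPM in labelled Δ/Δ, a fold of 1.69 (interval 1.1 to 2.59, unadjusted p = 0.0233, adjusted p = 0.330). Ank had 35.7, 41.6 and 37.0 CPM in wt/Δ and 54.8, 46.9 and 82.4 CPM in labelled Δ/Δ, a fold of 1.61 (interval 1.11 to 2.32, unadjusted p = 0.0176, adjusted p = 0.312). For Slc20a1 and Ank the groups did not overlap, which makes 2 of the 8 against 20.5% of all genes.

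Alpl had 1485, 1960 and 1158 CPM in sorted wt/Δ cells and 1632, 1930 and 1313 CPM in labelled Δ/Δ, a fold of 1.06 (interval 0.695 to 1.61, adjusted p = 0.935). The groups covered much the same range, and the lower bound of the interval lies above the fold of 0.506 measured at week 4 in culture. Spp1 had 13857, 12603 and 12154 CPM in wt/Δ and 5445, 10026 and 17303 CPM in labelled Δ/Δ, a fold of 0.849 (interval 0.442 to 1.63, adjusted p = 0.870). The labelled Δ/Δ libraries lay on both sides of wt/Δ. Spp1 is also made by osteoclasts and macrophages, and the markers of these cells summed to 5606, 4505 and 6766 CPM in wt/Δ and to 2391, 2599 and 7126 CPM in labelled Δ/Δ, with 10 of 10 detected in each group. The study defines MSCs by a gate that leaves out cells with CD45, and it found tdTomato only within that gate. It describes the sequenced cells as sorted for tdTomato, without restating the gate. Ptprc, the gene of CD45, had 30.6 to 53.3 CPM in wt/Δ and 46.0 to 60.6 CPM in labelled Δ/Δ. The part of such cells in the levels of Spp1 was not tested. Mgp had 176, 217 and 54.2 CPM in wt/Δ and 94.6, 102 and 124 CPM in labelled Δ/Δ, a fold of 0.718 (interval 0.356 to 1.45, adjusted p = 0.720). Enpp1 had 106, 67.2 and 213 CPM in wt/Δ and 140, 116 and 145 CPM in labelled Δ/Δ, and Phospho1 had 0.252 to 1.27 CPM and 0.262 to 0.449 CPM. Replicate 3 of wt/Δ was the lowest of the 6 for Alpl and Mgp and the highest for Enpp1. Without the 2 libraries rich in megakaryocyte markers, which leaves 2 libraries in each group, none of the 8 was called. On the log2 scale, Alpl then had 0.43 in place of 0.08, Spp1 -0.75 in place of -0.24, Enpp1 -0.32 in place of 0.05 and Mgp -0.23 in place of -0.48. Slc20a2 had 0.77, Slc20a1 0.75, Ank 0.48 and Phospho1 -1.08, beside 0.76, 0.75, 0.69 and -1.22 with all 6 libraries. The adjusted p-values without those libraries were 0.694 to 0.955.

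The genotype difference of the sorted cells was set against that of week 4 in culture in a fit of all 18 libraries. Of the 8, only Alpl passed, with a higher log2 difference in the sorted cells by 1.1 (standard error 0.26, interval 0.55 to 1.65, adjusted p = 0.0251), where 2% of the 14832 genes were called higher and 1.96% lower. The call did not survive removal of wt/wt replicate 2 or 3 at week 4, labelled Δ/Δ replicate 1 or 2 of week 4 or sorted labelled Δ/Δ replicate 2, with values between 0.97 and 1.11 and adjusted p of 0.0601 to 0.0690. Without the libraries rich in megakaryocyte markers it was kept (1.45, adjusted p = 0.00175). Ank had 1.21 (adjusted p = 0.0772) and Mgp -1.67 (adjusted p = 0.0919), and DESeq2 called both (adjusted p = 0.0273 and 0.0338). DESeq2 called 1106 of the 15341 genes it tested there. Without sorted wt/Δ replicate 3, Mgp (-2.10, adjusted p = 0.00424) and Slc20a1 (0.85, adjusted p = 0.0147) were called, and without wt/wt replicate 1 of week 4, Ank was called (1.48, adjusted p = 0.0120). Culture, the age of the mice, the source of Cre and the genotype of the controls differ between the experiments and cannot be told apart.

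A list of 65 other genes of mineralization and phosphate metabolism was read beside the 8. Of the 56 tested at week 4, 9 were higher in labelled Δ/Δ, 20 were lower and 27 did not pass, where 9.2% and 6.46% of all genes were called. The median log2 fold change of the list was -0.18, beside 0.0024 over all genes. Among genes of ATP release and nucleotide hydrolysis, which act upstream and downstream of Enpp1, Panx3, a channel through which ATP leaves osteoblasts, had 193 to 251 CPM in wt/wt and 13.7 to 20.9 CPM in labelled Δ/Δ (log2 fold change -3.67, adjusted p = 3.66e-07). Nt5e, which makes adenosine from AMP, fell (-1.81, adjusted p = 3.45e-06), and Entpd1, which breaks down ATP and ADP, rose (1.58, adjusted p = 3.54e-05), the other 4 genes of that list not passing. Among partners of Phospho1 in matrix vesicles, Smpd3, a sphingomyelinase that frees phosphocholine, had 219 to 360 CPM in wt/wt and 50.2 to 55.4 CPM in labelled Δ/Δ (-2.49, adjusted p = 6.18e-07). Anxa2 (-0.40, adjusted p = 0.0137) and Anxa5 (-0.43, adjusted p = 0.0282) were lower and Anxa6 (0.40, adjusted p = 0.00993) higher, Anxa5 being named after its value was seen. None of the 5 genes that load zinc onto alkaline phosphatase or anchor it in the membrane passed the test, the smallest adjusted p being 0.0603 for Gpaa1.

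Of the 5 tested matrix phosphoproteins and modifiers, the class to which Spp1 belongs, 3 were lower and 1 higher. Ibsp (bone sialoprotein) had 3216 to 6029 CPM in wt/wt and 251 to 706 CPM in labelled Δ/Δ (-3.34, adjusted p = 6.34e-05), and Dmp1 had 231 to 342 CPM and 13.2 to 45.7 CPM (-3.32, adjusted p = 5.05e-05). Phex, an endopeptidase that acts on such proteins, fell (-2.39, adjusted p = 6.27e-04), and Fam20a, a pseudokinase that helps to phosphorylate them, rose (0.61, adjusted p = 0.00355), the latter named after its value was seen. Of the Gla proteins related to Mgp, Bglap (osteocalcin) had 8.12 to 10.1 CPM in wt/wt and 0.247 to 0.915 CPM in labelled Δ/Δ (-4.17, adjusted p = 5.59e-06), while Gas6 (0.57, adjusted p = 0.00311) and Pros1 (0.55, adjusted p = 0.0452) were higher. The 3 enzymes of vitamin K dependent carboxylation did not pass. Of the genes of phosphate hormones and receptors, Galnt3 (-3.53, adjusted p = 3.43e-06) and Pth1r (-1.81, adjusted p = 5.09e-06) fell and Stc1 rose (2.03, adjusted p = 9.98e-06). Of the phosphate transporters and pyrophosphatases outside the 8, Ppa1, a soluble pyrophosphatase inside the cell, was called lower (-0.42, adjusted p = 0.0405), and Xpr1, the phosphate exporter, had a log2 fold change of 0.13 (adjusted p = 0.933). Of the 8 tested genes listed as other secreted regulators of calcification, 3 were higher and 1 lower. Grem1, an antagonist of bone morphogenetic proteins, rose from 1.67 to 1.79 CPM in wt/wt to 12.0 to 20.0 CPM in labelled Δ/Δ (3.17, adjusted p = 2.31e-06). Nog, another such antagonist, fell (-0.84, adjusted p = 0.0350), and Tnfrsf11b rose (0.87, adjusted p = 0.00668). Of 9 osteoblast factors, 6 were lower and none higher, among them Sp7 (-0.84, adjusted p = 1.55e-04) and Dlx3 (-2.62, adjusted p = 1.07e-04). The level of Ifitm5, whose protein sits in the osteoblast membrane, was 5.47 to 12.6 CPM in wt/wt and 0 to 0.0987 CPM in labelled Δ/Δ, levels so low that its fitted value depends on the count added before taking logs. At week 1 it had at most 0.387 CPM. It is among the 6 and passed the filter on low counts through wt/wt at week 4, so its call carries little weight. Several of these genes (Ibsp, Dmp1, Bglap and Ifitm5) are also in the list of mature osteoblast markers.

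**Figure D4:**
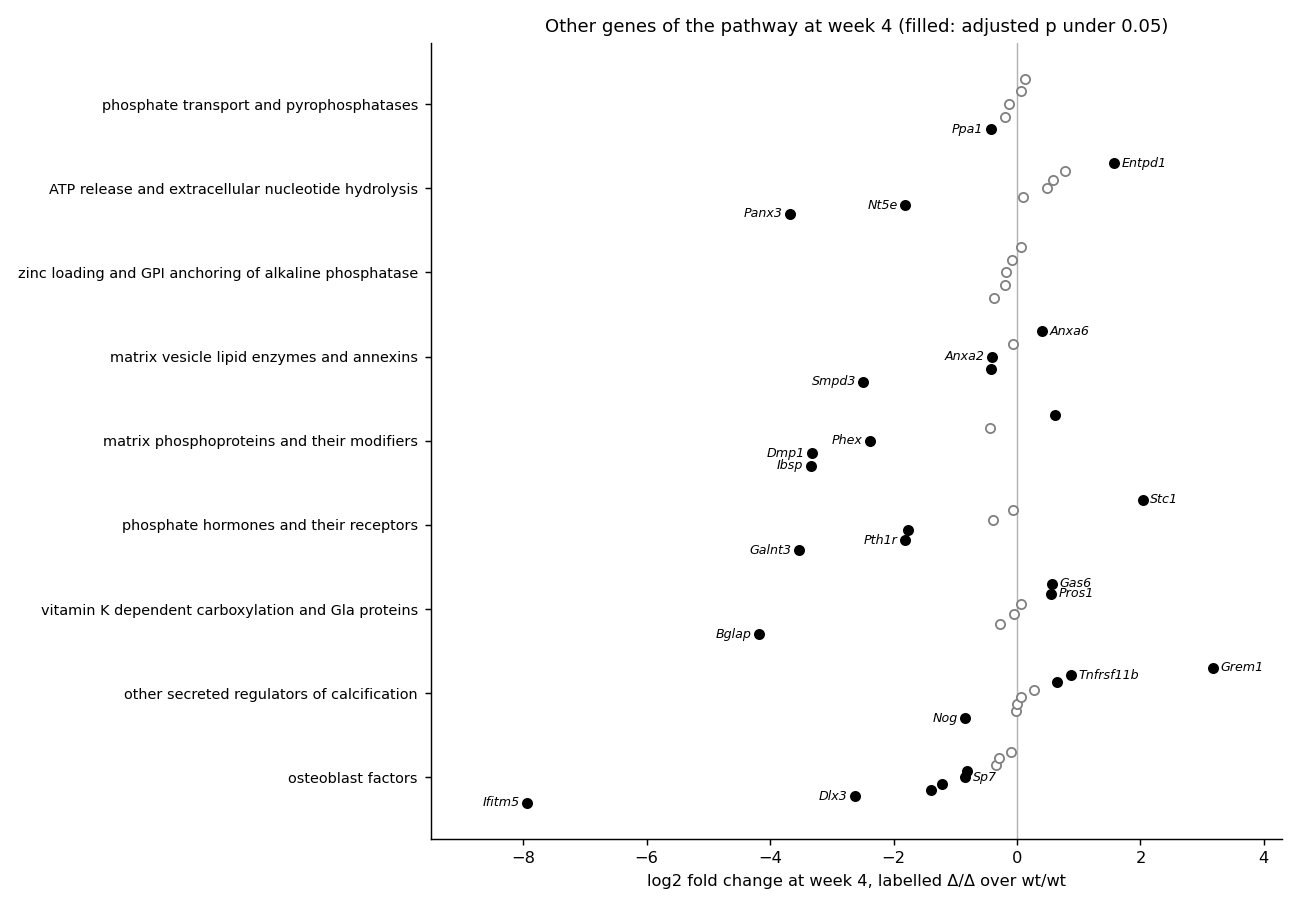
Log2 fold changes at week 4 (labelled Δ/Δ over wt/wt) of the 56 tested genes of 9 lists, filled where the adjusted p was under 0.05, with names for the up to 3 called genes of smallest adjusted p in each list. Ifitm5, with almost no counts in labelled Δ/Δ, lies farthest to the left, genes such as Panx3 at -3.67 and Ibsp at -3.34 lie between it and 0, and Grem1 at 3.17 lies farthest to the right.

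In the other comparisons the same 65 genes were counted. At week 1, 2 of 56 were higher (Smpd3, log2 fold change 0.79, adjusted p = 0.0215, and Nog, 1.23, adjusted p = 0.04996) and 1 lower (Grem1, -1.04, adjusted p = 0.0381), where 0.752% and 0.266% of all genes were called. In the interaction, 4 were higher and 17 lower, led by Panx3 (-4.51, adjusted p = 3.33e-06), where 4.08% and 3.08% of all genes were called. Over time in wt/wt, 27 of 56 rose, where 17.9% of all genes did, and 9 fell, where 16.1% did, so that the share that fell was that of all genes. Over time in labelled Δ/Δ, 15 of 56 rose and 15 fell, where 18.8% and 16.3% of all genes were called. In the sorted cells none of 58 passed, with or without the libraries rich in megakaryocyte markers. The comparisons in culture share libraries, so that their counts are not separate pieces of evidence.

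The genes whose log2 CPM was most like that of each of the 8 over the 12 cultured libraries were named by Pearson's r, as a description, since the libraries fall into 4 groups. For Alpl these were Cpeb1 (0.989), Syt6 (0.983) and Pgr (0.983). For Phospho1 they were Tmie (0.977), Ihh (0.973) and Galnt3 (0.965), and for Slc20a1 Tbc1d1 (0.991), Slc4a4 (0.984) and Shroom4 (0.978). Slc20a2 was closest to Slit1 (0.969), Slc12a7 (0.965) and Nov (0.957), and Ank to Trhde (0.971), Gtf3c2 (0.968) and Xpo4 (0.963). The likeness was lower for Mgp (Rab13 0.936, Bgn 0.926, Txnip 0.916), Spp1 (Sncaip 0.897, Hspb8 0.894, Spryd4 0.886) and Enpp1 (Col6a4 0.897, Dnajc16 0.870, Apold1 0.833). Among the 8 themselves, Alpl and Slc20a1 ran most against each other (r = -0.925), and Enpp1 and Ank (0.795) and Ank and Slc20a1 (0.786) ran most alike.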

How the data were processed

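RNA of 18 libraries was amplified with SMART-Seq v4, which keeps no record of strand, made into libraries with Nextera XT and sequenced on a NextSeq instrument. The deposited values are raw counts per gene, which the authors made with HISAT2 2.0.4 on mm10 and featureCounts 1.6.3 per the submitters' processing notes, and the annotation and strand setting of the counting are not given in the sources used here. Counts ran from 12807832 to 90717232 per library, and a gene with few counts, such as Phospho1, is measured less precisely.

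Groups were taken from the sample titles. Genes were filtered with filterByExpr (minimum count 10), scaled by TMM, and compared by the quasi-likelihood test of edgeR 4.0.16 in R 4.3.3 (limma 3.58.1), with Benjamini-Hochberg adjustment over all genes tested and a threshold of 0.05. All adjusted p-values are from that test unless DESeq2 1.42.0 is named, and intervals are at 95%. The 12 cultured libraries shared one fit, the 6 sorted libraries another, and the comparison between experiments used all 18, across tables that were counted separately. Levels are CPM, and levels between genes are CPM per kilobase of exon in GENCODE M21. The pipeline was tested on simulated data.

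The 8 genes, the gene lists and the tests were chosen with earlier results of these data known. Named were the 8 genes, Pot1a, up to 3 called genes of smallest adjusted p per list and comparison (otherwise up to 2 of smallest p), and the 3 genes most correlated with each of the 8; not all of the genes so eligible are printed. Deviations from the group means were compared between groups. For the wt/wt cultures of week 1 and week 4 they correlated most, but weakly, between equal replicate numbers. There r was 0.152, 0.220 and 0.209 for numbers 1 to 3. Between the genotypes at week 4, r was 0.636 for number 1. Numbers 2 and 3 of wt/wt were closest to numbers 3 and 2 of labelled Δ/Δ (0.392 and 0.486). Whether equal numbers share a mouse is not known. No 2 libraries of a group were alike within sampling noise (chi-square per degree of freedom 10.29 to 359.7). Alternatives were other thresholds, scalings and filters, DESeq2, the replicate number as a block, fewer libraries and each library left out. Removal of both megakaryocyte-rich sorted libraries, and the block in the 6 wt/wt libraries alone, were chosen after seeing the data.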

Additional observations from a re-analysis of the deposited data

Results flagged for a closer look

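Of the 8 genes, 3 had a genotype difference that itself differed between week 1 and week 4 by the interaction test of edgeR. These were Alpl (-1.44 on the log2 scale, adjusted p = 2.36e-04), Phospho1 (-3.29, adjusted p = 0.00231) and Slc20a2 (0.45, adjusted p = 0.0485). The call of Slc20a2 was lost in 15 of 20 alternatives, the replicate block among them (adjusted p = 0.0755), with adjusted p from 0.00548 to 0.133 over all 20. For Alpl, the 3 labelled Δ/Δ libraries were above the 3 wt/wt libraries at week 1 and below them at week 4. Phospho1 shares most of its exonic bases with neighbouring genes, as given above, and its counts were few.

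Alpl also had a genotype difference that differed between the sorted cells and week 4 in culture (1.1, adjusted p = 0.0251), with sorted groups that overlapped and cultured groups that did not. This call was lost in 6 of 27 alternatives, which were a threshold of 0.01 and the removal of 5 single libraries, with adjusted p up to 0.0690.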

How the results depend on the processing

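Over 1169 values of single genes under the alternatives, 1091 kept their direction and their side of the threshold, 39 lost a call, 20 gained one and 19 changed sign. Alpl, Slc20a2 and Mgp kept their week 4 calls under every alternative run at the threshold of 0.05 or stricter, and Phospho1 under every one in which it was tested (it was not tested where every library had to hold 10 counts). At week 1, the number of the 8 genes called went from 0 to 1 at a threshold of 0.1 and with DESeq2, to 2 with only the 6 libraries compared, and lay between 0 and 1 with a library left out. The calls over all genes moved too. They were 134 of 13169 in the main fit and 331 at a threshold of 0.1. DESeq2 called 436 of 13974, and the fit of the 6 libraries 237 of 12625. Over time in labelled Δ/Δ, the number of the 8 called went from 5 to 2 at a threshold of 0.01 and lay between 2 and 5 with a library left out. At that threshold the calls over all 13169 genes went from 4623 to 2901. Between culture and sorted cells, the number of the 8 called went from 1 to 0 at a threshold of 0.01 and to 3 at 0.1 and with DESeq2, and lay between 0 and 3 with a library left out. Over all 14832 genes the calls went from 587 to 224 at 0.01 and to 1025 at 0.1, and DESeq2 called 1106 of 15341. With the replicate block, the numbers called were 5 at week 4, 0 at week 1, 2 in the interaction (Slc20a2 lost, adjusted p = 0.0755), 4 over time in wt/wt, 5 over time in labelled Δ/Δ, 0 in sorted cells and 1 between culture and sorted cells, and the block changed no other call among the 8. In the same order, the calls over all genes with the block were 1909, 109, 886, 4314, 4537, 0 and 532. With a library left out, log2 values that changed sign ran from -0.29 to 0.18 for Mgp and -0.084 to 0.034 for Slc20a1 at week 1, from -0.13 to 0.64 for Enpp1 and -0.017 to 0.68 for Ank in the interaction, from -0.69 to 0.082 for Enpp1 at week 4, from -0.26 to 0.62 for Enpp1, -0.084 to 0.30 for Alpl and -0.73 to 0.086 for Spp1 in sorted cells, and from -0.0065 to 1.07 for Enpp1 and -0.019 to 0.84 for Spp1 between culture and sorted cells. Without the libraries rich in megakaryocyte markers, Enpp1 had -0.32 in sorted cells. The causes were not tested. With 3 libraries a group, small differences cannot be resolved.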
